A study of Mus musculus with 4 samples.

Results

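Cortical proximal tubule spots were compared between ischemic and normal mouse kidney by Visium, which captures polyadenylated RNA on barcoded array spots and counts unique molecular identifiers (UMIs). Each spot can hold several cells, so the spots are regions rich in proximal tubule transcripts and not single cells. All 4 sections came from left kidneys of male WT C57BL/6J mice aged 7 to 8 weeks, were cut at 10 µm from snap-frozen tissue and shared 1 slide. The 2 normal sections were controls, and the 2 ischemic sections came from mice whose renal pedicles were both clamped for 30 min and whose kidneys were taken 24 h later. Neither the labels nor the methods tie a section to a mouse, and the study's methods describe technical replicates of the same mice, so the p-values measure only the spread between these sections, which may be technical.

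The spots were chosen by readout. The counts of every tissue spot and its up to 6 array neighbours were pooled, the share of Slc5a2, Slc5a12, Slc22a6 and Slc22a8 in all UMIs was taken, and the 30% of spots with the highest share in each section were kept. This gave 785 of 2616 and 805 of 2682 spots in normal sections 1 and 2, and 720 of 2401 and 784 of 2613 spots in ischemic sections 1 and 2, or 3094 of 10312 in all. The last spot kept and the first left out had shares of 0.0837% and 0.0837% in normal section 1, 0.0851% and 0.0850% in normal section 2, 0.0432% and 0.0431% in ischemic section 1, and 0.0354% and 0.0353% in ischemic section 2. A fixed fraction of spots was thus taken at a lower share in the ischemic sections. The spots lay along the rim, at a median of 2 array steps from the tissue edge in all 4 sections. Of the other spots, those with the highest share of the straight tubule genes Slc7a13, Cyp7b1, Serpina1f and Slc22a13, 25% of all spots of a section, formed an outer stripe set, at medians of 10, 12, 8 and 8 steps, and the rest are called remaining spots. The proximal tubule spots held 14130401 UMIs in normal section 1, 8641409 in normal section 2, 9104513 in ischemic section 1 and 7951856 in ischemic section 2.

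**Figure D1:**
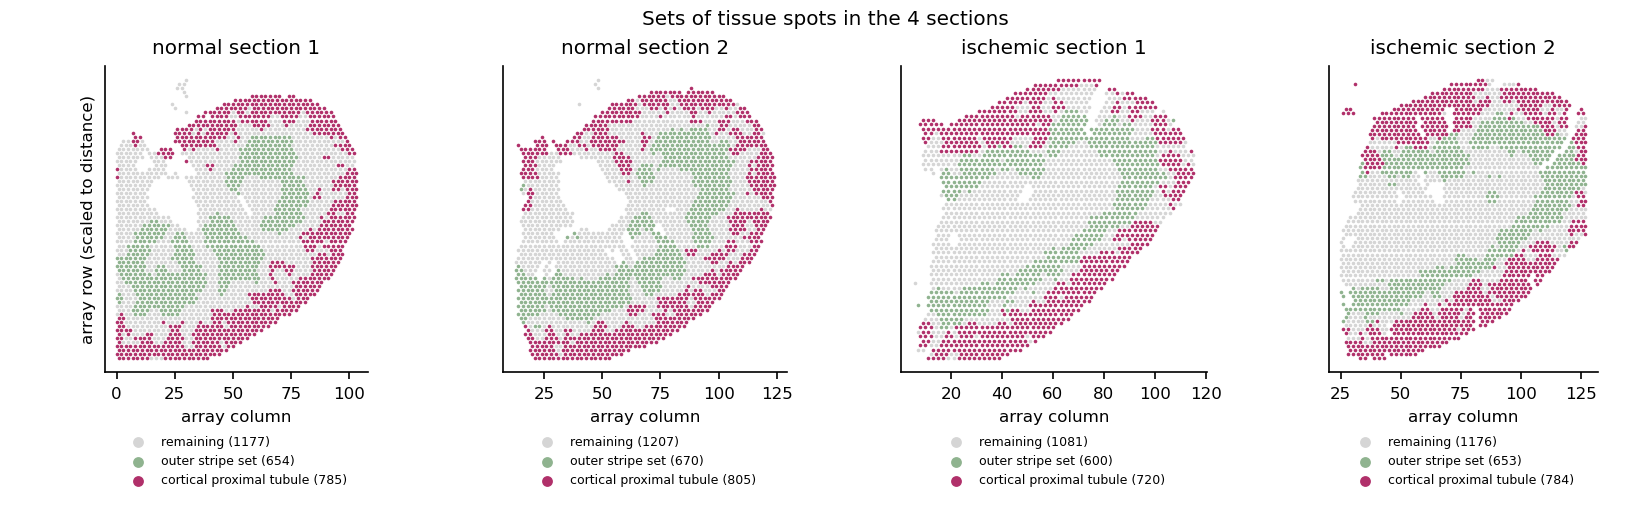
Tissue spots of the 4 sections by array column and array row (scaled to distance), coloured as cortical proximal tubule spots, outer stripe set or remaining spots, with the number of each in the legend. The proximal tubule spots (785, 805, 720 and 784) follow the rim of the tissue, and the outer stripe set lies inside them.

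The proximal convoluted tubule reclaims most filtered glucose, phosphate, amino acids and protein, and secretes organic anions and drugs. Its cells are rich in mitochondria, burn fatty acids rather than glucose, and make glucose from lactate and amino acids. Injured tubule cells are known to lose transporters and to express Havcr1 (KIM-1) and Lcn2 (NGAL), and the straight segment in the outer stripe is known to be easily injured by ischemia.

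The 4 selecting genes did not behave alike. Slc5a2 (SGLT2, the glucose cotransporter of the early tubule, chr7:128265657-128272430, + strand of GRCm38) had 415 and 412 CPM in normal and 104 and 95.9 CPM in ischemic sections, in counts normalised to library size (CPM). Slc5a12, a lactate cotransporter at chr2:110597298-110647779 (+), had 44.9 and 43.8 CPM against 8.47 and 7.75 CPM. Slc22a8 (OAT3, an organic anion carrier of the basolateral membrane, chr19:8591254-8611835, +) had 252 and 195 CPM against 35.2 and 33.8 CPM. These 3 genes were lower in both ischemic sections. Slc22a6 (OAT1, an organic anion carrier encoded beside Slc22a8 at chr19:8618039-8628299, +) had 554 and 496 CPM against 464 and 471 CPM, a far smaller gap. Slc22a6 held most counts of the 4 genes in ischemic but not in normal spots, so the selection bears on this gap. The direction of Slc22a6 turned with total UMI scaling (log2 0.04) and with one share cut-off for all sections (log2 0.24). All 4 genes, Slc22a6 included, were lower when 40% of spots were taken, a choice that still uses their counts. They were called lower in 2 selections that do not use their counts. These were the spots nearest the tissue edge and the spots chosen by Slc34a1, Lrp2 and Slc4a4. Since the counts of the selecting genes chose the spots, the levels above are a description without a test.

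The promoters of Slc22a6 and Slc22a8 are shown because these neighbours on chromosome 19 differed in the size of their gap. That of the phosphate transporter Slc34a1, which lost most CPM among the transporters, is shown with them. The sequences are from RefSeq (GRCm38.p6) and run from 250 bases before to 50 after the start in that table. The gene spans given in this text are from GENCODE, and the RefSeq start lies inside the span for Slc22a8 and Slc34a1 and just before it for Slc22a6. The sequences lie at chr19:8617746-8618045 (+), chr19:8592932-8593231 (+) and chr13:55399398-55399697 (+). Capitals mark GTTAAT and its reverse complement ATTAAC, the letters of a half-site of hepatocyte nuclear factor 1.
Slc22a6: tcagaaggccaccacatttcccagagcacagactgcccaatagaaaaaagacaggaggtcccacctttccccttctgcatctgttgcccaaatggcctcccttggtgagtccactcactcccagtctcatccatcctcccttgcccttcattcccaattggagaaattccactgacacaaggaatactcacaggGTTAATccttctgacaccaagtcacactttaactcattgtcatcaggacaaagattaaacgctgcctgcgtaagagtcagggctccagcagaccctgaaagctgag
Slc22a8: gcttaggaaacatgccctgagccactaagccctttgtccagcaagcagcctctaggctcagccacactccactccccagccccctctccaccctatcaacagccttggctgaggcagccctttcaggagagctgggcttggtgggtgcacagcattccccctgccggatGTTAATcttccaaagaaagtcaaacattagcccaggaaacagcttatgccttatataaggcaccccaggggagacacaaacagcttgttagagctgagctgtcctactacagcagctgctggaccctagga
Slc34a1: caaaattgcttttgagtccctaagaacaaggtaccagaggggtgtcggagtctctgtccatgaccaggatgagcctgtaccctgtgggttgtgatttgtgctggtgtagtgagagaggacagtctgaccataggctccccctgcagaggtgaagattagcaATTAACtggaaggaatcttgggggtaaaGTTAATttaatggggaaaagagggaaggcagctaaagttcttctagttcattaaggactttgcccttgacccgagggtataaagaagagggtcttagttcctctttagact
Slc22a6 and Slc22a8 held 1 match each and Slc34a1 held 2, while 7.10% of 32851 promoters of the same length held at least 1 on either strand. Among the listed transporters, 4 of the 22 with a promoter entry held the letters (18.2%), as did 4 of the 18 listed injury genes with an entry (22.2%), against 8.24% of 27025 genes. Endocytic uptake genes held them in 1 of 8 cases (12.5%) and fatty acid oxidation genes in 3 of 19 (15.8%). A second run of letters, AGGTCA, was also searched. It was held by 9 of the 22 transporters (40.9%), 7 of the 18 injury genes (38.9%) and 0 of 2 selecting genes, against 18.1% of all genes. A match is a run of letters and not a tested binding site. Slc5a2 and Slc5a12 had no entry.

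Across all genes, ischemic and normal proximal tubule spots differed widely. The test was edgeR's quasi-likelihood test on the 4 sums of raw counts, with p-values adjusted by Benjamini-Hochberg and a threshold of 0.05. Of 12924 genes tested, 3378 (26.1%) were higher and 3153 (24.4%) lower in ischemic sections, 50.5% in all, so a list with such a share of its genes called is near the background. The median log2 fold change of all genes was 0.02. Scaling to total UMIs without TMM moved that median to 0.24, and the share of calls that were higher from 51.7% to 69.3%, so small changes below are relative to the TMM scale. Log2 differences over genes had an SD of 0.358 for the normal pair and 0.285 for the ischemic pair, against 0.989 to 1.06 for pairs across conditions. In these sums fewer cells of a type and less RNA per cell cannot be told apart.

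Transporters mostly fell. Of 25 proximal tubule transporters other than the selecting genes, 19 fell and 6 rose, with a median log2 fold change of -0.89. Slc34a1, the main phosphate transporter of the brush border (chr13:55398187-55415592, +), had 4295 and 3881 CPM in normal and 415 and 406 CPM in ischemic sections, a change of log2 -3.32, SE 0.15 (edgeR adjusted p = 1.74e-58). Slc34a3, another phosphate transporter, went from 46.6 and 48.7 CPM to 3.17 and 2.82 CPM (log2 -3.98, SE 0.17). The water channel Aqp1 went from 363 and 311 CPM to 70.5 and 77.1 CPM (log2 -2.19, SE 0.11). For each of these genes both ischemic sections lay far below both normal sections. The rises included Slc5a10, a sugar cotransporter, with 113 and 93.2 CPM in normal and 286 and 284 CPM in ischemic sections (log2 1.47, SE 0.11, edgeR adjusted p = 2.17e-29), and the efflux pump Abcc4, which rose from 16.6 and 13.8 CPM to 36.9 and 33.3 CPM (log2 1.19, SE 0.13). The other rises were Slc5a1 (0.84), Abcc2 (0.46), Slc13a1 (0.40) and the glucose exit carrier Slc2a2 (0.28) on the log2 scale. The list held 5 rises with DESeq2, with 40% of spots or without pooling of neighbours, and 4 in the spots nearest the edge.

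Endocytic uptake genes fell in 7 of 9 cases, with a median of -1.19. Lrp2 (megalin, the receptor for filtered protein) had 802 and 733 CPM in normal and 228 and 221 CPM in ischemic sections (log2 -1.78, SE 0.12, edgeR adjusted p = 7.50e-34). Its partner Cubn (cubilin) had 197 and 182 CPM against 69.4 and 77.4 CPM (log2 -1.37, SE 0.11). The scaffold Pdzk1 had 920.4 and 785 CPM against 387 and 359 CPM (log2 -1.19, SE 0.12). The adaptor Dab2, at 222 and 198 CPM against 253 and 239.8 CPM, was among the 2 that did not pass the threshold, though it passed as a rise with total UMIs, upper quartile scaling, one share cut-off for all sections or the replicate block, and without normal section 1.

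Most transcription factors of the tubule were lower. Of 11 regulators tested, 9 were lower and 1 higher, with a median of -0.48, and scaled to total UMIs 5 were lower, with a median of -0.26. Hnf4a, a nuclear receptor of proximal identity, had 209 and 217 CPM in normal and 171 and 176 CPM in ischemic sections (log2 -0.30, SE 0.11, edgeR adjusted p = 0.0122). Per total UMIs, its levels in the upper, middle and lower spots, ranked as described below, overlapped between conditions. They were 176 to 198 and 194 to 233 CPM in normal and 161 to 215 and 166 to 219 CPM in ischemic sections. Maf had 89.95 and 97.0 CPM against 43.8 and 42.3 CPM (log2 -1.12, SE 0.11), and Ppargc1a, a coactivator of mitochondrial genes, had 25.8 and 24.4 CPM against 11.4 and 13.9 CPM (log2 -0.996, SE 0.14). The regulator that rose was Cebpa (log2 0.43, SE 0.17, edgeR adjusted p = 0.0233), a call lost with DESeq2, with one share cut-off for all sections, in the spots nearest the edge, and without normal section 1 or either ischemic section.

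**Figure D2:**
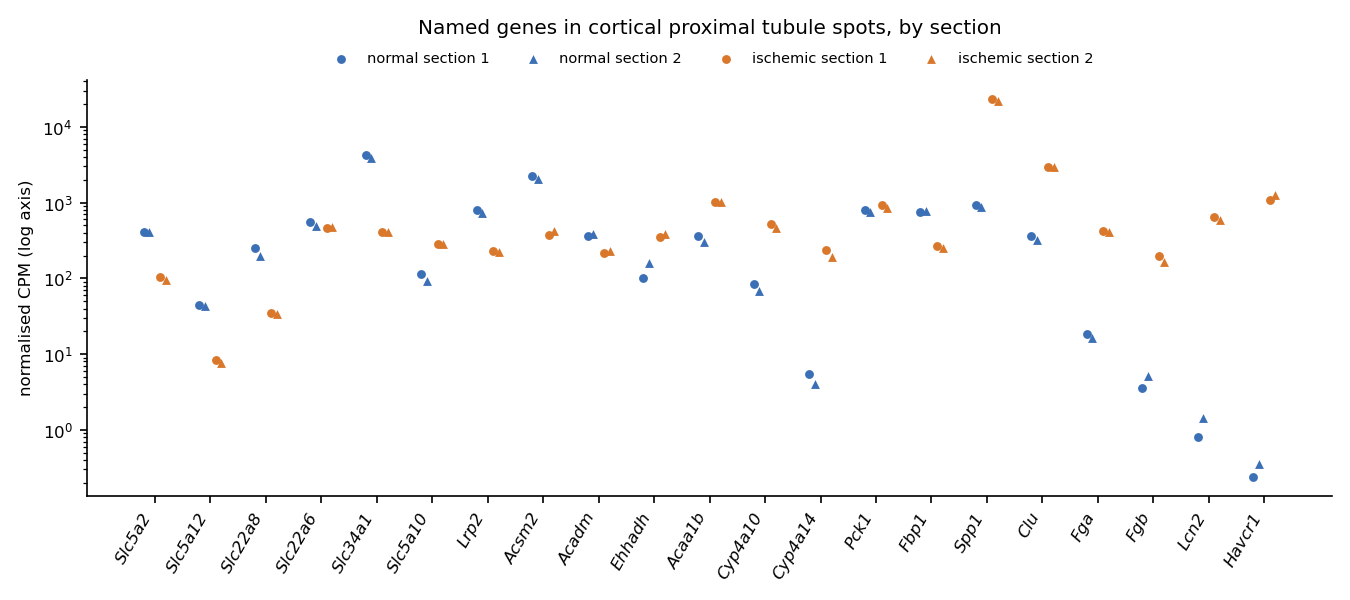
Normalised CPM (log axis) of 21 genes in the proximal tubule spots of each section, with normal sections in blue and ischemic sections in orange (section 1 as circles, section 2 as triangles). Slc34a1, Lrp2 and Acsm2 are lower and Cyp4a14, Fgb, Lcn2 and Havcr1 higher in both ischemic sections, while the sections lie close together for Slc22a6 and Pck1.

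Fatty acid oxidation genes split into risers and fallers. Of 26 genes, 15 rose and 9 fell, with a median of 0.44. The risers were led by Cyp4a14, a fatty acid omega-hydroxylase (chr4:115486200-115496142, −), with 5.54 and 4.02 CPM in normal and 234 and 191 CPM in ischemic sections (log2 5.44, SE 0.15, edgeR adjusted p = 8.98e-96). The omega-hydroxylase Cyp4a10 rose from 84.7 and 68.5 CPM to 522 and 463 CPM (log2 2.68, SE 0.12), and as genes of this family share sequence, the split of reads between copies is uncertain. Peroxisomal enzymes rose as well. The thiolase Acaa1b had 361 and 304 CPM against 1012 and 1024 CPM (log2 1.61, SE 0.12), and the bifunctional enzyme Ehhadh had 102 and 158 CPM against 354 and 381 CPM (log2 1.51, SE 0.11). Among mitochondrial genes the carnitine carrier Slc25a20 (log2 1.14) and the long-chain dehydrogenase Acadl (log2 0.82) rose, and the medium- and short-chain dehydrogenases Acadm (log2 -0.75) and Acads (log2 -0.75) fell. The largest fall was that of Acsm2, a medium-chain acyl-CoA ligase, from 2236 and 2037 CPM to 371 and 426 CPM (log2 -2.42, SE 0.13). When the same number of spots was taken nearest to the tissue edge, without any gene, 14 of the 26 genes rose and 9 fell, with a median of 0.28.

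Genes of glucose production fell less evenly. Of 9 genes of gluconeogenesis and fructose use, 6 fell and 1 rose, with a median of -0.64, or 2 rose without normal section 1, with total UMIs or with 20% of spots. With one share cut-off for all sections 4 fell and 3 rose, with a median of -0.17. Fbp1 (fructose bisphosphatase) fell from 754 and 782 CPM to 271 and 253 CPM (log2 -1.55, SE 0.12), and G6pc (glucose 6-phosphatase) fell from 102 and 121 CPM to 27.5 and 25.7 CPM (log2 -2.06, SE 0.11). Pck1, which makes phosphoenolpyruvate from oxaloacetate, had 793 and 763 CPM in normal and 939 and 860.2 CPM in ischemic sections (log2 0.21, SE 0.12, edgeR adjusted p = 0.144) and did not pass the threshold. Tkfc, a kinase of fructose breakdown, rose (log2 1.04, SE 0.11). Of 15 glycolysis genes, 6 rose, 3 fell and 6 passed in neither direction, with a median of 0.02. With total UMIs 8 rose and 2 fell, with a median of 0.23, and with DESeq2 4 rose and 3 fell. The median was -0.10 without normal section 2, 0.04 without ischemic section 1 and 0.01 without ischemic section 2, and fewer genes passed without either ischemic section. Eno1 (log2 1.12) and the glucose carrier Slc2a1 (log2 1.22) rose, and Pfkm fell (log2 -0.98).

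Respiratory chain transcripts were lower. All 20 nuclear-encoded genes of the list fell, with a median of -0.73, from Cycs (cytochrome c, log2 -0.32) to Sdhb (succinate dehydrogenase, log2 -1.09). Of 13 mitochondrially encoded genes 11 fell and none rose, with a median of -0.61. The median was -0.46 without ischemic section 1 and -0.74 without ischemic section 2. Fewer genes were called in these fits, which leave 1 ischemic section, so that the normal sections give the spread. Mitochondrially encoded UMIs made up 5.47% and 5.63% of counts in normal and 3.70% and 4.45% in ischemic sections.

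Detoxification and amino acid enzymes had the lowest list medians among the pathways. Of 15 xenobiotic and steroid genes tested, 13 fell and 2 rose, with a median of -1.87. Akr1c21, a hydroxysteroid dehydrogenase, fell from 1504 and 1296 CPM to 78.1 and 73.1 CPM (log2 -4.21, SE 0.14, edgeR adjusted p = 1.70e-78). Cyp2e1 fell from 516 and 507 CPM to 43.4 and 44.7 CPM (log2 -3.54, SE 0.12). Kap, an androgen-driven transcript of the proximal tubule, lost most CPM of any gene, from 107930.0 and 72740.0 CPM to 21897 and 23249 CPM (log2 -2.001, SE 0.19). Cyp24a1, which degrades active vitamin D, rose from 34.7 and 42.9 CPM to 249 and 264 CPM (log2 2.73, SE 0.11). Of 18 genes of de novo NAD synthesis and amino acid breakdown, 14 fell and 3 rose, with a median of -1.38, and 1 rose without ischemic section 2. Haao, a step of NAD synthesis from tryptophan, fell from 255 and 208 CPM to 60.4 and 55.5 CPM (log2 -1.997, SE 0.11). Acmsd, which diverts that pathway from NAD, fell from 119 and 97.9 CPM to 12.2 and 7.51 CPM (log2 -3.45, SE 0.13). The salvage enzyme Nampt rose from 65.3 and 63.3 CPM to 99.96 and 110.5 CPM (log2 0.71, SE 0.10). Miox, of inositol breakdown, fell from 3292 and 2559 CPM to 246 and 230.1 CPM (log2 -3.62, SE 0.14), and Gatm, of creatine synthesis, from 686 and 694 CPM to 74.7 and 62.2 CPM (log2 -3.33, SE 0.13).

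**Figure D3:**
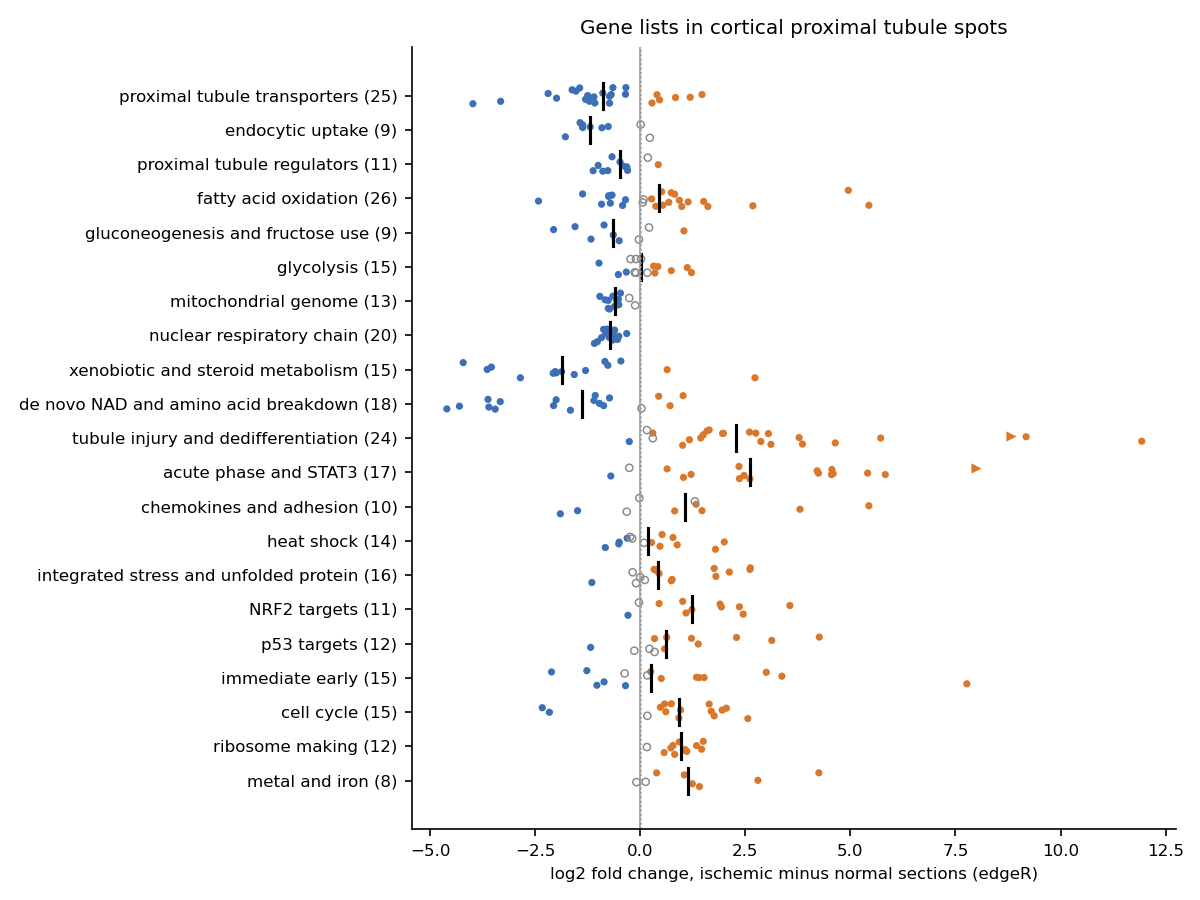
Log2 fold change (ischemic minus normal sections, edgeR) of every tested gene in 21 lists, with the number of genes in parentheses. Orange points rose, blue points fell, open points did not pass, black bars are list medians, triangles are lower bounds for Krt20 and Saa1, and the dotted line is the median of all genes (0.02). Most transporter, respiratory chain and detoxification genes lie left of 0, and most injury and acute phase genes right of it.

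Injury genes rose in the cortex. Of 24 tubule injury genes tested, 21 rose and 1 fell, with a median of 2.29, also with Krt20 at its bound. Havcr1 (chr11:46735080-46779578, +), with 3 UMIs in each normal section, had 0.241 and 0.355 CPM in normal and 1092 and 1244 CPM in ischemic sections (log2 11.93, SE 0.24, edgeR adjusted p = 1.16e-118). Lcn2 rose from 0.802 and 1.42 CPM to 655 and 584 CPM (log2 9.18, SE 0.20). Krt20, a keratin at chr11:99428403-99438150 (−) with no UMI in the normal spots, had 61.4 and 68.3 CPM in ischemic sections, at least 452-fold higher than a floor of 3 UMIs over both normal sections. Spp1 (osteopontin) rose from 938 and 875 CPM to 23178 and 21903 CPM (log2 4.64, SE 0.18), and Clu (clusterin) from 363 and 325 CPM to 2992 and 2964 CPM (log2 3.11, SE 0.14). Sox9, a transcription factor of tubule repair, rose from 0.241 and 0.237 CPM to 11.4 and 15.1 CPM (log2 5.72, SE 0.37). In none of these genes did the conditions overlap, as in 73.9% of all genes tested. The gene that fell was Prom1 (log2 -0.26, SE 0.11, edgeR adjusted p = 0.0431), a call lost in 10 of the 16 alternatives, among them DESeq2, total UMIs, and the fits without normal section 1 or either ischemic section.

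The rise of Havcr1 covered nearly all spots. At least 1 Havcr1 UMI was found in 694 of 720 spots (96.4%, exact Clopper-Pearson 95% interval 94.8 to 97.6) of ischemic section 1 and 727 of 784 (92.7%, 90.7 to 94.5) of ischemic section 2. In the normal sections it was found in 3 of 785 (0.382%, 0.0789 to 1.11) and 3 of 805 spots (0.373%, 0.0769 to 1.09). These intervals cover counting error only. After each spot was thinned to 2000 UMIs, leaving out 22 and 51 shallower spots, the shares in the ischemic sections were 81.5% and 80.4%. Pooled with its neighbours, the lowest ischemic spot had 223 CPM of Havcr1 in section 1 and 119 CPM in section 2, the median spot 1090 and 1173 CPM, and the highest 2903 and 3039 CPM. Krt20 had a UMI in 43.5% and 36.4% of ischemic spots, or 11.4% and 10.8% after thinning, and in 0 of 785 and 0 of 805 normal spots, which allows a share of spots with a UMI of up to 0.469% and 0.457% and does not limit the share of spots with the transcript.

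Acute phase genes rose with the injury genes. Of 17 tested, 15 rose and 1 fell, with a median of 2.61, also with Saa1 at its bound. The fibrinogen chains, best known from liver, rose together. Fgb went from 3.53 and 5.20 CPM to 197 and 163 CPM (log2 5.41, SE 0.15), Fga from 18.5 and 16.6 CPM to 425 and 405 CPM (log2 4.56, SE 0.13) and Fgg from 19.7 and 21.2 CPM to 418 and 335 CPM (log2 4.21, SE 0.13). Saa1 had no UMI in the normal spots and 46.1 and 27.4 CPM in ischemic sections, at least 256-fold above that floor of 3 UMIs. Timp1, an inhibitor of matrix proteases, rose from 0.963 and 3.90 CPM to 117 and 132 CPM (log2 5.83, SE 0.17). Socs3, the feedback inhibitor of STAT3 signalling, rose from 0.722 and 1.301 CPM to 21.9 and 24.9 CPM (log2 4.59, SE 0.24), and Stat3 rose by 1.21 on the log2 scale. The complement gene Cfb fell (log2 -0.70). Of 10 chemokine and adhesion genes, 5 rose and 2 fell, with a median of 1.06. The median was 0.54 without normal section 1, and with one share cut-off for all sections it was 0.28, with 4 of 9 up and 3 down. Cxcl1, which attracts neutrophils, went from 0.802 and 1.66 CPM to 14.6 and 17.96 CPM (log2 3.80, SE 0.26), and Cxcl12 from 58.9 and 78.9 CPM to 22.6 and 26.3 CPM (log2 -1.49, SE 0.11).

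Stress lists rose to different extents. Of 11 targets of NRF2, which answers oxidants, 9 rose and 1 fell (median 1.23), and none fell with DESeq2, with total UMIs, with 20% of spots, with one share cut-off for all sections or without either ischemic section. The rises were led by Hmox1 (heme oxygenase), from 26.2 and 19.3 CPM to 274 and 272 CPM (log2 3.56, SE 0.12). Of 8 metal and iron genes, 6 rose and none fell (median 1.15). The metallothioneins rose, Mt2 from 36.4 and 40.3 CPM to 662 and 797 CPM (log2 4.25, SE 0.13) and Mt1 from 563 and 620.4 CPM to 4064 and 4154 CPM (log2 2.80, SE 0.14). The ferritin heavy chain Fth1 gained most CPM of any gene, from 21332 and 17556 CPM to 53222 and 49905 CPM (log2 1.41, SE 0.17). Of 12 genes of ribosome making, 11 rose and none fell (median 0.98). Of 16 genes of the integrated stress and unfolded protein responses, 11 rose and 1 fell (median 0.41), among them Asns (asparagine synthetase, log2 2.62) and Psat1 (serine synthesis, log2 1.76), while Herpud1 fell (log2 -1.15).

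The remaining stress lists were mixed. Of 12 p53 targets, 8 rose and 1 fell (median 0.60), but 5 rose without either ischemic section. The cell cycle inhibitor Cdkn1a rose from 3.53 and 3.43 CPM to 28.2 and 33.3 CPM (log2 3.13, SE 0.18). Of 14 heat shock genes, 7 rose and 4 fell (median 0.18, or 0.11 without normal section 2 or ischemic section 2 and 0.25 without ischemic section 1). With total UMIs 8 rose and 2 fell, with a median of 0.39. The small chaperone Cryab was up (log2 2.003) and Dnaja1 down (log2 -0.83). Of 15 immediate early genes, 8 rose and 5 fell (median 0.25), with medians of 0.16 without normal section 1, 0.38 without normal section 2, 0.63 in the spots nearest the edge, 0.46 without pooling of neighbours, 0.45 with total UMIs and -0.03 with one share cut-off for all sections. Myc rose from 2.25 and 2.48 CPM to 23.6 and 25.4 CPM (log2 3.37, SE 0.20), and the phosphatase Dusp1 fell from 76.1 and 82.9 CPM to 19.4 and 17.4 CPM (log2 -2.11, SE 0.12).

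Of 15 cell cycle genes tested, 12 rose and 2 fell, with a median of 0.92. The helicase genes of DNA replication rose, with Mcm3 going from 1.04 and 2.84 CPM to 7.76 and 7.16 CPM (log2 2.05, SE 0.29) and Mcm5 from 3.77 and 3.78 CPM to 12.7 and 13.0 CPM (log2 1.76, SE 0.21), and Pcna, the replication clamp, from 30.2 and 28.5 CPM to 48.0 and 50.5 CPM (log2 0.74, SE 0.11). The genes that fell were Birc5, of the mitotic machinery, from 3.05 and 3.43 CPM to 0.613 and 0.822 CPM (log2 -2.16, SE 0.43), and the proliferation marker Mki67, from 1.28 and 2.25 CPM to 0.306 and 0.352 CPM (log2 -2.33, SE 0.59). In the spots nearest the tissue edge neither fall passed. Another 5 genes were too low to test, among them the mitotic genes Top2a, with 14 and 8 UMIs in normal and 4 and 7 UMIs in ischemic sections, and Ccnb1, with 10 and 10 against 1 and 2 UMIs.

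Among all genes, the 10 largest rises with at least 20 CPM in ischemic sections were Krt20, Havcr1, Saa1, Sprr2f, Lcn2, Fosl1, Gsta1, Timp1, Cbr3 and Gm3776. Krt20 and Saa1 had no UMI in the normal spots, so their place in this order depends on the prior count of the fit. Sprr2f, a cornified envelope gene, had a UMI ratio of 899 to the few UMIs of the normal spots (exact 95% counting interval 161 to 35550). Fosl1, an AP-1 subunit, had a ratio of 246 (67.7 to 2039). The glutathione transferase Gsta1 rose from 0.963 and 1.54 CPM to 142 and 143 CPM (log2 6.88, SE 0.17), and the carbonyl reductase Cbr3 from 0.883 and 1.18 CPM to 50.5 and 56.4 CPM (log2 5.71, SE 0.20).

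The 10 largest falls were Pvalb, Gm48281, Egf, Inmt, Mep1b, Igkc, Slc22a7, Slc22a22, Ttc36 and BC049987. Pvalb and Egf are genes of the distal nephron, and fell from 111 and 81.5 CPM to 1.02 and 0.587 CPM (log2 -6.86, SE 0.20) and from 402 and 458 CPM to 5.21 and 4.46 CPM (log2 -6.46, SE 0.16). Inmt, a methyltransferase, fell from 1582 and 1248 CPM to 22.2 and 21.5 CPM (log2 -6.02, SE 0.16), and the brush border protease Mep1b from 50.5 and 41.3 CPM to 0.919 and 0.939 CPM (log2 -5.62, SE 0.22). The organic anion carrier Slc22a7 fell from 95.3 and 83.5 CPM to 2.55 and 2.94 CPM (log2 -5.03, SE 0.16). Igkc, an immunoglobulin chain of plasma cells, was uneven between the normal sections, going from 12.0 and 67.9 CPM to 1.33 and 0.352 CPM. Besides Kap, the largest losses in CPM were those of Gpx3, Klk1, Fxyd2 and mt-Co3, and besides Fth1 the largest gains were those of Spp1, Mt1, Ftl1 and Clu. Gpx3, a secreted glutathione peroxidase of the proximal tubule, fell from 38581 and 28121 CPM to 20407 and 18742 CPM (log2 -0.77, SE 0.17).

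Markers of other cells moved too, and their part in the results above was not tested. Summed levels in this paragraph are per total UMIs, while genes are counted as up or down on the TMM scale unless stated. Neutrophil genes, summed over 5 markers, were at 1.56 to 2.20 CPM in normal and 64.9 to 86.7 CPM in ischemic spots, with 3 of 3 tested genes up. Hemoglobin genes (4) were at 3135 to 8201 CPM against 668 to 1752 CPM, all down. T and B cell genes (6) were at 6.44 to 9.61 CPM against 1.098 to 1.51 CPM, with 4 of 4 tested down, or 2 of 4 without ischemic section 1. Straight tubule genes (4) were at 371 to 375 CPM against 27.7 to 32.8 CPM, all lower. Distal convoluted tubule genes (3, all down) were at 480.0 to 488 CPM against 199.7 to 241 CPM, thick limb genes (4, with 3 down) at 1647 to 1729 CPM against 1031 to 1108 CPM, and collecting duct genes (7, with 4 down) at 625 to 723 CPM against 476 to 529 CPM. Podocyte genes (5, with 1 up and 1 down, or 2 down without normal section 1 and 2 up without normal section 2) were at 93.5 to 146 CPM against 135 to 143 CPM, endothelial genes (6, with 1 up and 3 down, or 2 up without normal section 2 and none up without ischemic section 2) at 325 to 417 CPM against 377 to 413 CPM, and macrophage genes (6, with 1 up and 4 down, or 2 down without normal section 2, without ischemic section 1 or with DESeq2, and 1 down with total UMIs) at 88.3 to 133 CPM against 97.0 to 98.5 CPM. Fibroblast and smooth muscle genes (6, with 3 up and 2 down) were at 125 to 216 CPM against 194 to 223 CPM, and adipocyte genes (4, with 1 of 2 tested down, or 2 down without normal section 1 and 1 up and 1 down without normal section 2) at 110.1 to 186 CPM against 140.4 to 155 CPM. With total UMIs, podocyte genes had 2 up and 1 down, and endothelial genes 2 up and 2 down. On that scale collecting duct genes had 1 up and 4 down, and fibroblast and smooth muscle genes 4 up and 2 down. No marker was at 0 in all 4 sections.

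The spots of each section were ranked by the share of the selecting genes and split into 3 equal parts, upper, middle and lower, as a description without a test, since the rank uses the same counts. Levels of the parts are in CPM of total UMIs, not TMM-scaled. In that order Havcr1 was at 854, 1170.0 and 1437 CPM in ischemic section 1 and 914, 1304 and 1748 CPM in ischemic section 2, and Krt20 at 39.8, 65.4 and 87.7 CPM and 43.6, 56.7 and 116 CPM. Both rose as the share fell. Cyp4a14 went the other way, with 341, 244 and 186 CPM in section 1 and 284, 191 and 143 CPM in section 2. Slc34a1 followed the selecting genes, with 657, 398 and 324 CPM and 643, 408 and 267 CPM. Fgb had no common order, at 176, 233 and 219 CPM and 195, 161 and 168 CPM. The upper part lay at a median of 1 array step from the tissue edge in both ischemic sections, against 3 and 4 steps for the lower part.

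**Figure D4:**
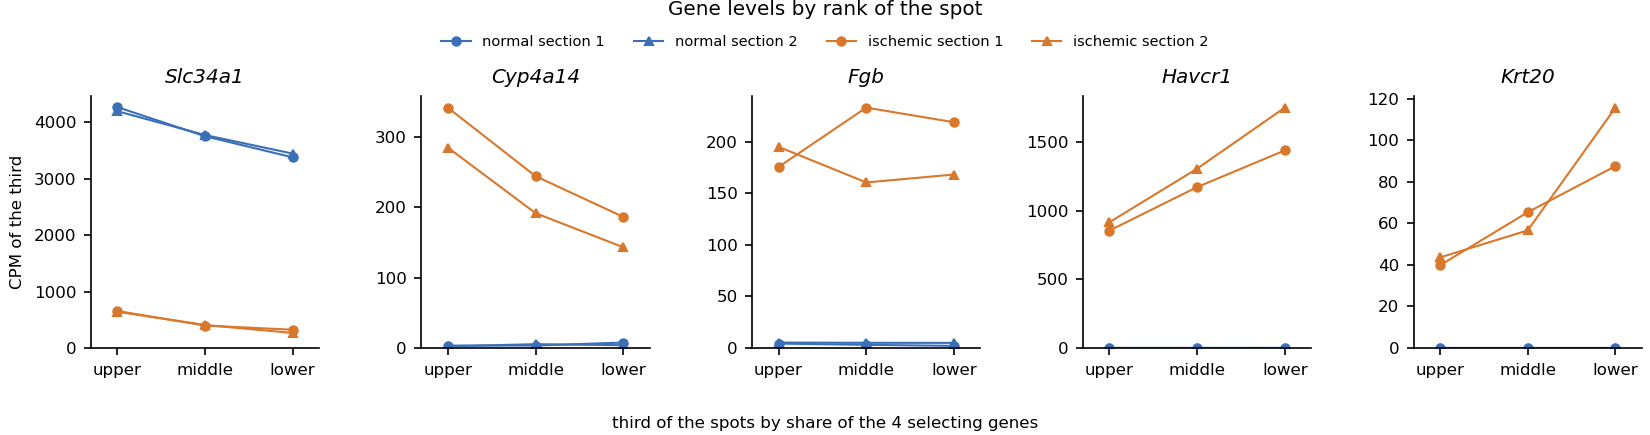
CPM of total UMIs of 5 genes in the upper, middle and lower part of the proximal tubule spots ranked by share of the selecting genes, with 1 line per section (blue normal, orange ischemic). In the ischemic sections Havcr1 and Krt20 are higher and Slc34a1 and Cyp4a14 lower in the lower part, and the normal sections stay near 0 for all but Slc34a1.

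To ask where the cortical response differed from that of deeper tissue, the ischemic effect in the proximal tubule spots was set against the effect in the outer stripe set and in the remaining spots, in 1 edgeR model of the 3 sums of each section with the section as a block. Both comparisons use the same proximal tubule sums. The spots were chosen by proximal tubule genes within each section, ischemic ones included. The part of this choice in the differences of effect was not tested. They were not refitted with the spots nearest the edge, with the other selecting genes or with one share cut-off. Of 14400 genes, 2409 (16.7%) had a higher and 1877 (13.0%) a lower effect in proximal tubule spots than in the outer stripe set, 29.8% in all. Against the remaining spots 1470 (10.2%) were higher and 764 (5.31%) lower, 15.5% in all. With total UMI scaling the first split became 1808 higher and 2599 lower. The genes that chose the outer stripe set were lower in ischemic sections, with summed levels of 2846 and 2661 CPM in normal and 327 and 352 CPM in ischemic outer stripe spots.

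Fatty acid oxidation genes differed between the sets. Of the 26 fatty acid oxidation genes, 24 had a higher effect in proximal tubule spots than in the outer stripe set, 24 a higher one than in the remaining spots, and none a lower one. Their median effect was 0.43 in proximal tubule spots, -0.89 in the outer stripe set and -0.50 in the remaining spots, beside 0.00, 0.03 and 0.06 over all genes. In CPM of the joint model, normal against ischemic, Cyp4a10 had 91.9 and 71.8 against 551 and 489 CPM in proximal tubule spots but 367 and 304 against 119.7 and 104 CPM in the outer stripe set (difference 4.27, SE 0.24, edgeR adjusted p = 1.05e-07). Ehhadh had 110.5 and 165 against 374 and 403 CPM in proximal tubule spots and 242 and 383 against 80.6 and 90.8 CPM in the outer stripe set (difference 3.36, SE 0.21, edgeR adjusted p = 2.42e-07). For both genes the ischemic sections were higher than the normal ones in the cortex and lower in the outer stripe set.

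All 9 genes of gluconeogenesis and fructose use had a higher effect than in the remaining spots and 8 of 9 than in the outer stripe set. Pck1 had 860.3 and 799 against 992 and 909 CPM in proximal tubule spots and 553 and 561 against 92.5 and 90.9 CPM in the outer stripe set (difference 2.80, SE 0.20, edgeR adjusted p = 7.75e-07). The fructose carrier Slc2a5 had 53.6 and 44.4 against 48.4 and 47.2 CPM in proximal tubule spots but 90.6 and 68.6 against 4.03 and 3.65 CPM in the outer stripe set (difference 4.35, SE 0.32, edgeR adjusted p = 7.75e-07). In the ranked parts of the cortical spots the level of Pck1, here in CPM of total UMIs and so on another scale, was 1473, 917 and 729 CPM in ischemic section 1 and 1400.0, 808 and 578 CPM in ischemic section 2 from the upper to the lower part. In the normal sections its parts lay between 654 and 772 CPM. Slc2a5 went likewise, with 77.4, 44.8 and 31.2 CPM and 90.7, 35.4 and 19.3 CPM, against 40.1 to 46.6 CPM in the parts of the normal sections. In CPM of the joint model again, Slc5a10 had 122 and 97.7 against 302 and 300.3 CPM and 239 and 204 against 95.6 and 104 CPM (difference 2.61, SE 0.19, edgeR adjusted p = 7.72e-07).

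Endocytic uptake genes had a higher effect in 7 of 9 cases against the outer stripe set and 8 of 9 against the remaining spots, with none lower, and the latter count was 5 without the section block. Transporters were split against the outer stripe set (12 of 25 higher and 8 lower) and mostly higher against the remaining spots (17 and 2). The 8 became 5 without normal section 1 or either ischemic section, and the 17 became 10 without ischemic section 2. Nuclear respiratory chain genes were higher against the outer stripe set in 19 of 20 cases, with 1 lower, but in 10 without either ischemic section and in 5 without the section block. Against the remaining spots 8 were higher, with 3 without normal section 1, 15 without normal section 2, 1 without ischemic section 1, and 0 without ischemic section 2 or without the section block.

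Injury genes went the other way against the outer stripe set. Of 25 genes, 1 had a higher and 14 a lower effect in proximal tubule spots, and the median effect was 1.95 in proximal tubule spots, 3.59 in the outer stripe set and 1.92 in the remaining spots. The higher one was Havcr1, with 0.261 and 0.372 against 1153 and 1313 CPM in proximal tubule spots and 2.87 and 5.92 against 2136 and 2199 CPM in the outer stripe set (difference 2.89, SE 0.45, edgeR adjusted p = 3.10e-04). Its levels were higher in the outer stripe set in all 4 sections. Clu had 394 and 341 against 3161 and 3130.0 CPM in proximal tubule spots and 41.0 and 70.4 against 3058 and 3049 CPM in the outer stripe set (difference -2.74, SE 0.23, edgeR adjusted p = 2.19e-06). The keratin Krt8 had 103 and 96.6 against 297 and 318 CPM and 119 and 113 against 1089 and 1195 CPM (difference -1.67, SE 0.11, edgeR adjusted p = 3.83e-07). Against the remaining spots 9 injury genes had a higher and 5 a lower effect, and 2 a lower one without ischemic section 2. Immediate early genes (11 of 16), ribosome making genes (9 of 12) and heat shock genes (8 of 14) also had a lower effect than in the outer stripe set, and none a higher one. Without ischemic section 1 the ribosome making count was 4 and the heat shock count 5, and without ischemic section 2 the former was 5. Markers of other cells differed between the sets. Neutrophil markers were at 375 to 386 CPM in ischemic outer stripe spots against 64.9 to 86.7 CPM in proximal tubule spots. From normal to ischemic outer stripe spots, fibroblast and smooth muscle markers went from 95.04 and 135 CPM to 555 and 597 CPM, and thick limb markers from 5610 and 6253 CPM to 2797 and 2680 CPM. The part of these markers in the differences was not tested.

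**Figure D5:**
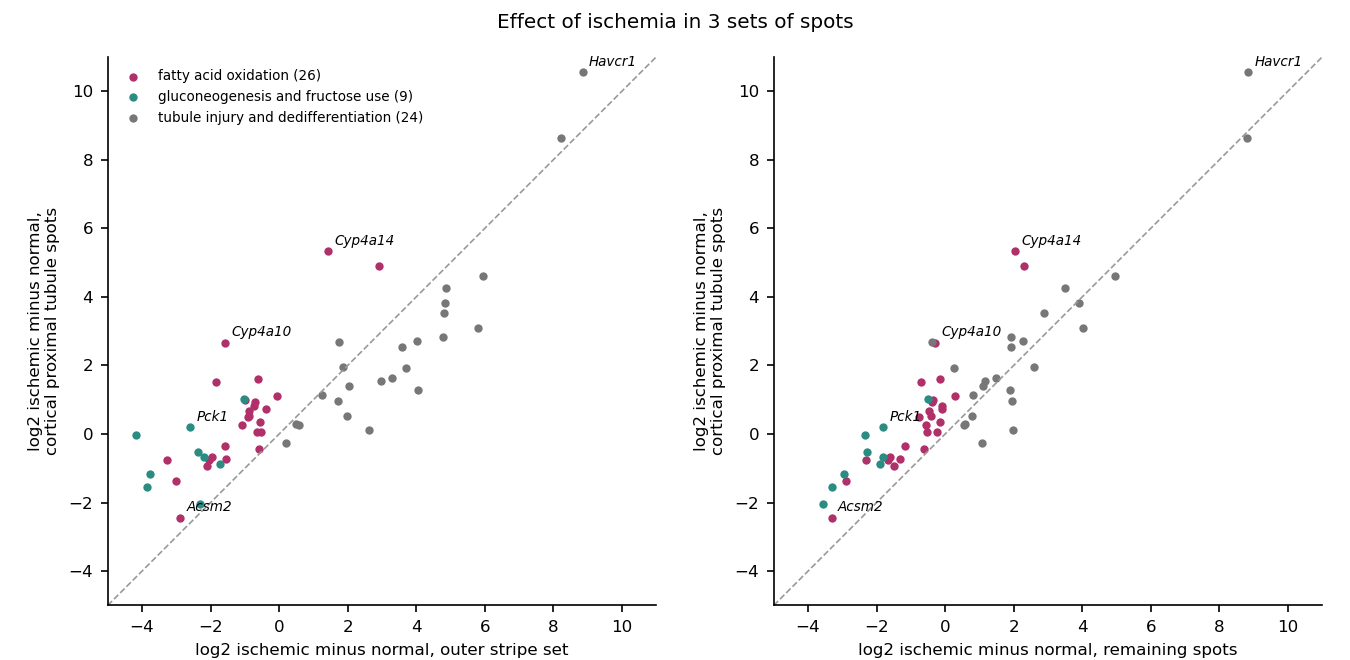
Ischemic effect (log2, ischemic minus normal sections) of 3 gene lists in proximal tubule spots (vertical) against the outer stripe set (left) and the remaining spots (right), with 1 point per gene and a dashed line of equal effect. Fatty acid oxidation genes lie above the line in both panels (24 of 26 past the threshold in each), and most injury genes lie below it on the left; Krt20, without normal counts in proximal tubule spots, is left out.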

How the data were processed

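Visium spatial RNA-seq was analysed in 2 normal and 2 ischemic kidney sections. The deposited matrices hold raw UMI counts per gene and tissue spot for 32285 genes, which the authors made with Space Ranger 1.3.0 on mm10 (GRCm38), per the submitters' processing notes. Low-count genes were removed from the sums per section with filterByExpr, and the sums were scaled by TMM and tested in edgeR 4.0.16 (R 4.3.3) with Benjamini-Hochberg adjustment at 0.05. CPM values of tested genes are counts scaled to TMM library sizes. Summed CPM of markers, CPM of single spots and CPM of the ranked parts are per total UMIs, another scale, and serve as descriptions. Effects in the 3 sets were compared in 1 model with the section as a block. Totals per section are given with the results, and error is the SE of the fit.

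The genes named were the selecting genes, members of each list with the highest CPM or largest change, the 10 largest rises and falls with no overlap and at least 20 CPM in the higher condition, the 5 largest gains and losses in CPM, and the 5 largest differences of effect each way. Further list genes and those of the closing paragraph were chosen after their values were seen. Some list genes are counted with their list and not reported here by name. The members and lists were chosen with earlier results of these data known.

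Tested on simulated data with 12924 genes, the members' test recovered 179 of 200 genes changed by a fold of 2 with 7 false calls, and 118 of 200 changed by a fold of 1.5. With 14400 genes, the test of the difference of effect against the remaining spots recovered 119 of 200 changed by a fold of 2 with 12 false calls. Alternatives were total UMI and upper quartile scaling, DESeq2 1.42.0, no filter, 20% or 40% of spots, no pooling, mitochondrial genes left out, a common share cut-off of 0.0619%, Slc34a1, Lrp2 and Slc4a4 as selecting genes, the spots nearest the edge, a replicate block, no section block and each section left out. With a section left out, its condition has no replicate, and the other sections give the spread. The differences of effect were not refitted with mitochondrial genes left out, the common cut-off, the other selecting genes or the spots nearest the edge. Barcodes shared between sections are those of the array design. No doublet caller was run on spots.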

Additional observations from a re-analysis of the deposited data

Results flagged for a closer look

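Each value here is the difference of the log2 ischemic effect between sets of spots, from the joint edgeR model, and was listed because the test of that difference passed. It was among the 5 largest in its direction. Against the remaining spots, proximal tubule spots had a higher effect for Cidec (6.31), Sprr1a (4.36), Fam25c (3.88), Igfbp2 (3.62) and Krt20 (6.57). They had a lower effect for Rasd1 (-2.82), Defb1 (-2.65), Olfm4 (-2.06), Tnfsf10 (-2.01) and Hbegf (-1.90). Cidec, a lipid droplet gene, had 1.48 and 1.24 against 3.99 and 5.58 CPM in proximal tubule spots and 50.2 and 17.5 against 1.73 and 1.27 CPM in remaining spots, normal against ischemic. In the remaining spots the 4 adipocyte markers summed to 1183 and 682 CPM in normal and 259.5 and 243 CPM in ischemic sections, and their part in this difference was not tested. Defb1, a defensin, had 1046 and 866 against 578 and 499 CPM in proximal tubule spots and 486 and 578 against 1814 and 1959.8 CPM in remaining spots, so its direction was opposite in the 2 sets.

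Against the outer stripe set, the effect was higher for Slc2a5 (4.35), Cyp4a10 (4.27), Cyp4a14 (3.94), Apobec2 (3.86) and Acot1 (3.80), and lower for Adipoq (-7.34), Gm3776 (-7.28), Gsta1 (-5.39), 3300005D01Rik (-4.89) and Chil3 (-4.85). Acot1, an acyl-CoA thioesterase, had 64.9 and 57.2 against 236 and 236 CPM in proximal tubule spots and 371 and 295 against 93.2 and 92.3 CPM in the outer stripe set. For Krt20, Adipoq and Gm3776 a set of one condition held no UMI, so the fitted difference depends on the prior count and gives no size.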

How the results depend on the processing

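DESeq2 called 2008 genes higher and 2298 lower in ischemic proximal tubule spots, and scaling to total UMIs gave 4516 higher and 2002 lower. Leaving out 1 section gave 2334 to 3352 higher and 2252 to 3436 lower genes. The replicate number as a block gave 3461 higher and 3224 lower. Deviations of the sections numbered 1 from their condition means correlated at 0.0829 over genes. This is 1 pair, so it cannot show whether sections of equal number share anything else. Genes whose effect differed from that in remaining spots, 2234 in all, were 1062 with DESeq2, 1057 without the section block, 1351 without ischemic section 1, 912 without ischemic section 2, and 912 to 2802 over the 4 sections left out. For the outer stripe set, 4286 became 2336 with DESeq2, 2823 without the section block, 2380 without ischemic section 1, 2572 without ischemic section 2, and 2380 to 3946 over the 4. Of the calls against the outer stripe set 56.2% were higher in proximal tubule spots, against 41.0% with total UMIs and 48.2% with upper quartile scaling, and against the remaining spots 65.8%, against 83.0% with DESeq2. Thinned to 1000 UMIs, Havcr1 was found in 61.8% and 61.8% of ischemic spots. The log2 change turned for Slc22a6 (0.04 with total UMIs, 0.24 with the common cut-off), Slc2a5 (0.19 with total UMIs, 0.25 with 20% of spots, 0.55 with the common cut-off, -0.16 to 0.10 with 1 section left out, turned without normal section 1), Hbegf (-0.01 with 20% of spots, -0.02 without ischemic section 1 in a range of -0.02 to 0.31 with 1 section left out), and Prom1 (0.30) and Mki67 (0.12) in the spots nearest the edge. With total UMIs the list median of the mitochondrially encoded genes was -0.40, and in the spots nearest the edge that of the p53 targets was 0.34 and that of the integrated stress and unfolded protein genes 0.63. The cause was not tested. Of 1979 single-gene values under the alternatives, 1894 kept their direction and side of the threshold. Depth limits genes with few UMIs, such as the 5 cell cycle genes too low to test.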

Other observations

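Plin2, Angptl4, Pdk4 and Cd36 are in none of the lists and were chosen after their values were seen, so they stand for no group. Plin2, which coats lipid droplets, had 77.6 and 69.4 CPM in normal and 1644 and 1677 CPM in ischemic sections (log2 4.49, SE 0.14, edgeR adjusted p = 1.30e-81). Angptl4, an inhibitor of lipoprotein lipase, had 43.2 and 44.4 CPM against 209 and 219 CPM (log2 2.29, SE 0.11), and Pdk4, which inhibits pyruvate dehydrogenase, had 1.60 and 3.19 CPM against 29.6 and 32.4 CPM (log2 3.77, SE 0.19). The fatty acid carrier Cd36 had 201 and 182 CPM against 444 and 479 CPM (log2 1.27, SE 0.11). In none of these 4 genes did the conditions overlap, as in 73.9% of all genes tested.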
